A study of Rattus norvegicus with 3 samples.

Results

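DNA repair genes and the genes of damage signalling were followed in the kidney of rats given thallium (Tl). The set held 37 genes, chosen by symbol, and 29 of them had a probe set with a single gene symbol among 15037 genes measured. The other 8 (Xrcc3, Blm, Wrn, Fanca, Fanci, Prkdc, Atr and Msh6) were not analysed here. The measured genes comprised 9 of homologous recombination, 3 of the Fanconi anaemia pathway, 4 of end joining, 3 of damage signalling, 1 of mismatch repair, 4 of nucleotide excision repair, 4 of base excision and strand break repair, and 1 of direct reversal.

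Total RNA was hybridized to 3 Clariom S rat arrays, 1 for the control group, 1 for the Tl 2 days group and 1 for the Tl 5 days group. The rats were 7-week-old male Wistar rats given an intraperitoneal injection of double distilled water (control) or of Tl sulfate, and kidneys were taken 2 or 5 days later. The paper and the series design give 30 mg/kg, once in the former and daily in the latter, whereas the sample labels give 40 mg/kg daily and name spleen. The number of rats behind each array is not given in the sources used here.

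With 1 array per group, the spread between rats is unknown, no difference could be tested, and the 2-fold limit used below is a rule of size only. Values are log2 signals as deposited by the authors, differences are given on the log2 scale, and "at 2 days" and "at 5 days" refer to the Tl 2 days and Tl 5 days groups. The 12 listed markers of the proximal tubule had control values from 12.08 to 18.82, whereas 5 measured B cell markers lay between 3.38 and 6.66 and 8 T cell markers between 2.73 and 8.71. As a bound for dim signals, the 95th percentile of the 63 probe sets for ERCC spike-in RNA was taken, which was 6.83 on each array. Of these lymphocyte markers only Cd4 (8.71) lay above it on the control array. On the control array 18 of the 29 genes lay below it, and 12 lay below it on all 3 arrays. The ERCC values hardly varied between arrays, whereas the 1153 negative control probe sets were brighter, with a median of 6.56 on the control array. At 2 days 8.33% of them were more than 2-fold above control and 11.6% more than 2-fold below it, and at 5 days 10.9% and 7.89%.

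Cells remove DNA lesions by several routes. Homologous recombination rebuilds broken DNA from the sister chromatid and works mainly in cells that replicate their DNA, and the Fanconi anaemia proteins open the way for it at crosslinked DNA. End joining ligates broken ends in any phase of the cell cycle. Excision pathways cut out damaged bases or bulky adducts and fill the gap, and the kinases Atm and Chek1 relay the presence of damage or of stalled replication to the cell cycle. In the adult kidney most tubular cells rest, and they re-enter the cell cycle after injury.

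Promoter sequences of these repair genes are shown first. E2F factors are known to drive genes of this kind at the start of DNA replication, but their part in the differences was not tested. RefSeq promoters (build GRCr8, 250 bases before to 50 after the annotated start) matched 24 of the 29 genes, and Rad54b, Xrcc2, Chek2, Xpa and Ddb2 had no match. The E2F words TTTCCCGC, TTTGGCGC, TTTCGCGC and TTTGCCGC, which do not contain each other, were searched on both strands. A match was present in 2.25% of 27457 promoters and in 3.19% of the 12435 promoters of genes measured on the array. It was present in 6 of the 24 genes, each with 1 match. Of these 6, Bard1, Chek1 and Fancd2 were among the 8 genes over 2-fold higher, and Atm, Fancc and Ung were among the other 16. The promoters of Fancd2 (chr4:148234458-148234757, plus strand), Chek1 (chr8:44629794-44630093, minus strand) and Bard1 (chr9:80143706-80144005, minus strand) are printed 5′ to 3′ with the E2F word in capitals, followed by that of Fancc (chr17:1686839-1687138, plus strand), a gene with nearly equal values on the 3 arrays.

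Fancd2: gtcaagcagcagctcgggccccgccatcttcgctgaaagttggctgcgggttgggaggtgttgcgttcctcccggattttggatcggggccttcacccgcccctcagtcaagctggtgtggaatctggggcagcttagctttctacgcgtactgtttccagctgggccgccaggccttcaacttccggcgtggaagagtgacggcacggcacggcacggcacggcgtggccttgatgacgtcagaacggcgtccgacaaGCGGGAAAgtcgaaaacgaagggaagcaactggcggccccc

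Chek1: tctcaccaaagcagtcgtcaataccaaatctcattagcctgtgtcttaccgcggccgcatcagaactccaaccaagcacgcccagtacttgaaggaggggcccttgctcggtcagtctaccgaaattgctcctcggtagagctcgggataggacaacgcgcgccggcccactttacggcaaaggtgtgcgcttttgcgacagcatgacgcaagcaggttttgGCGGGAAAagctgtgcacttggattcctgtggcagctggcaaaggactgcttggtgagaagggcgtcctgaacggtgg

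Bard1: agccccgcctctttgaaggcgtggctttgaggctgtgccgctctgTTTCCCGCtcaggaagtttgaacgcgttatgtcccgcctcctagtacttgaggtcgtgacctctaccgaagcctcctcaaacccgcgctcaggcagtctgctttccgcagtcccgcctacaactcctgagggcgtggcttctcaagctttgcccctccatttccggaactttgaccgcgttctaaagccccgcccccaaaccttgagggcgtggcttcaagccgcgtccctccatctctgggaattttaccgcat

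Fancc: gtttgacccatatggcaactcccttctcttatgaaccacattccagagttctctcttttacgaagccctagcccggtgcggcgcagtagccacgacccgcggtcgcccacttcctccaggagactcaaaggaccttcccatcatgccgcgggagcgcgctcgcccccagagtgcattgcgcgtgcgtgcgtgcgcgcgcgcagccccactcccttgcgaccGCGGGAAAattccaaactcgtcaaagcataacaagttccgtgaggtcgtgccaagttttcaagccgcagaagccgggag

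The word begins at position -28 relative to the annotated start in Chek1, at -29 in Fancc, at -205 in Bard1 and at 9 in Fancd2. It reads TTTCCCGC on the opposite strand in Chek1, Fancc and Fancd2, and on the printed strand in Bard1. A match is a description of these letters only. The CCAAT word was found in 10 of the 24 promoters (41.7%), against 37.7% of all promoters and 37.9% of those of genes measured on the array. The word TTTGAA of the cell cycle homology region was found in 4 (16.7%), against 18.1% and 15.2%.

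At 2 days, 8 of the 29 genes exceeded the control array by more than 2-fold, which was 27.6% of them against 6.03% of all 15037 genes. They were Fancd2, Chek1, Bard1, Brca1, Brca2, Rad54l, Rad51ap1 and Exo1. Only Xpa was over 2-fold lower (3.45%, against 4.65% of all genes). At 5 days Brca2 alone was over 2-fold higher (3.45%, against 5.37% of all genes), and 0 were over 2-fold lower, against 4.87% of all genes. The median log2 difference of the 29 genes was 0.30 at 2 days and 0.00 at 5 days, and that of all genes was 0.00 at both times. Both comparisons used the same control array.

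All 8 genes over 2-fold higher were dim on the control array. Of the genes of all kinds that were dim there (7433), 4.84% were over 2-fold higher at 2 days, against 8 of the 18 dim repair genes. On the Tl 2 days array, Rad54l, Rad51ap1 and Exo1 were still below the ERCC level. When values below that level were raised to it, only Chek1 remained over 2-fold higher, so the size of all these differences rests on dim signals. Quantile normalization and centring of the arrays kept all 8 genes past the limit.

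**Figure D1:**
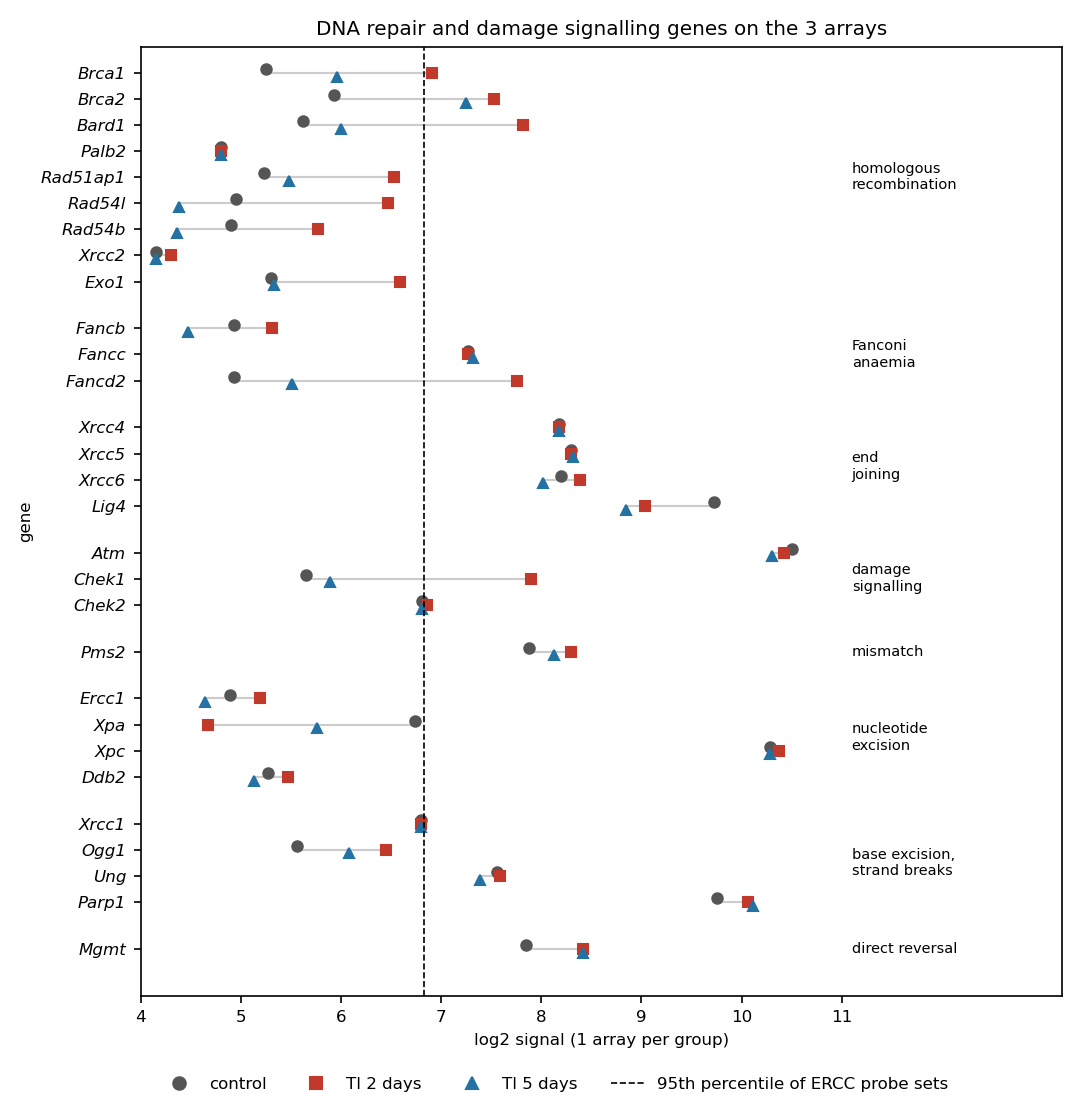
Log2 signal of the 29 measured genes (x axis) on the control (circles), Tl 2 days (squares) and Tl 5 days (triangles) arrays, grouped by repair pathway, with 1 array per group and no error bars; the markers of a gene are offset vertically for visibility. The dashed line is the ERCC level (6.83), and all 9 genes of homologous recombination lay left of it on the control array.

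Homologous recombination held most of the difference, with 6 of 9 measured genes over 2-fold higher at 2 days and a median of 1.30. The median was 0.03 at 5 days, where 1 gene was over 2-fold higher. Brca1, the tumour suppressor that directs broken ends into recombination, had values of 5.25 in control kidney, 6.91 at 2 days and 5.96 at 5 days, which are differences of 1.67 and 0.71 from control. Its partner Bard1, with which Brca1 forms a ubiquitin ligase, had 5.62, 7.82 and 6.00, with differences of 2.20 and 0.39. Both genes of this heterodimer were thus highest on the Tl 2 days array and closer to control on the Tl 5 days array.

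Brca2, a mediator of strand exchange in recombination, had values of 5.93, 7.52 and 7.25. It was higher than control by 1.59 and 1.32, and the 2 Tl arrays differed by only -0.27. Palb2, the protein that bridges Brca1 and Brca2, had the value 4.80 on all 3 arrays, equal to every deposited decimal. The 2 partners of Palb2 were thus past the limit at 2 days while Palb2 itself, at a dim level, did not differ.

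Rad51ap1, which stimulates strand pairing, had values of 5.23, 6.53 and 5.48, with differences of 1.30 and 0.25. The paralogous motor proteins Rad54l and Rad54b, which remodel DNA during strand exchange, shared a shape over the arrays. Rad54l had values of 4.95, 6.47 and 4.38, and Rad54b had 4.90, 5.77 and 4.36. They differed from control by 1.52 and 0.88 at 2 days and by -0.57 and -0.54 at 5 days. Exo1, an exonuclease that resects broken ends and also serves mismatch repair, had values of 5.30, 6.59 and 5.33, with differences of 1.29 and 0.03. Xrcc2, which also acts in recombination, had values of 4.15, 4.30 and 4.15 and stayed within 0.15 of control.

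The Fanconi anaemia genes did not move together. Fancd2, the protein that is monoubiquitinated at crosslinks, had the largest measured difference of the 29 genes at 2 days. Its values were 4.94, 7.76 and 5.51, which are differences of 2.82 and 0.58 from control. The control value was dim, and with values raised to the ERCC level the difference at 2 days was 0.93, below those of Chek1 (1.06) and Bard1 (0.99). Fancb and Fancc, subunits of the core complex that modifies Fancd2, were within 2-fold. Fancb had values of 4.93, 5.31 and 4.47, with differences of 0.38 and -0.45, and Fancc had 7.27, 7.27 and 7.32.

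The genes of damage signalling divided between the checkpoint kinases. Chek1, which restrains the cell cycle when replication stalls, had values of 5.64, 7.89 and 5.89, with differences of 2.25 and 0.24, and the former was 1.06 with values raised to the ERCC level. Chek2, the kinase that acts below Atm after DNA breaks, had 6.81, 6.86 and 6.81, and its largest difference from control was 0.05. Atm, the kinase that senses breaks, had 10.50, 10.42 and 10.31, with differences of -0.08 and -0.20. The signals of Chek2 and Atm were thus nearly level across the arrays on which Chek1 passed the limit. Chek2 lay just below the ERCC level on the control and Tl 5 days arrays, where its values were equal. On the control array 45.3% of negative control probe sets were at least as bright as Chek2, so its level signal carries little.

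No measured gene of end joining passed the limit, and all 4 were above the ERCC level on each array. That level is not a firm sign of expression. On the control array 24.5%, 22.7%, 24.4% and 10.3% of negative control probe sets were at least as bright as Xrcc4, Xrcc5, Xrcc6 and Lig4. Xrcc5 and Xrcc6, which encode the 2 subunits of the Ku ring that binds broken ends, had values of 8.29, 8.29 and 8.31, and of 8.20, 8.39 and 8.02. Xrcc4, the scaffold of the ligase, had 8.17 on all 3 arrays, again equal to every deposited decimal. Lig4, the ligase itself, stood apart from its scaffold with 9.72, 9.04 and 8.84, which are differences of -0.68 and -0.88 (0.622-fold and 0.544-fold).

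In nucleotide excision repair, Xpa was the only gene with a large difference. Xpa, the protein that checks the lesion before it is cut out, had values of 6.74, 4.67 and 5.76, which are differences of -2.07 (0.239-fold) and -0.98 (0.505-fold) from control. All 3 of its values lay below the ERCC level, and with values raised to that level Xpa did not differ between arrays. Its difference at 5 days passed the limit after quantile normalization (-1.06) and after centring of the arrays (-1.04).

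The other 3 measured genes of this pathway were close to control. Xpc, which recognizes distorted DNA, had values of 10.28, 10.37 and 10.28. Ddb2, which finds ultraviolet lesions, had 5.27, 5.47 and 5.13, and Ercc1, a subunit of the nuclease that cuts on the 5′ side, had 4.89, 5.18 and 4.64. The differences of these 3 genes from control lay between -0.24 and 0.30, and Ddb2 and Ercc1 lay below the ERCC level on each array.

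In base excision and strand break repair 0 of 4 genes passed the limit. Of all genes 6.03% were over 2-fold higher and 4.65% lower at 2 days, and 5.37% and 4.87% at 5 days, so this count is no result about the pathway. Ogg1, the glycosylase that removes oxidized guanine, had values of 5.56, 6.45 and 6.08, with differences of 0.89 (1.85-fold) and 0.52 (1.43-fold), at a dim level on all 3 arrays. Ung, the glycosylase that removes uracil, had 7.56, 7.59 and 7.38. Parp1, which binds strand breaks and marks them with poly(ADP-ribose), had 9.76, 10.07 and 10.11, with differences of 0.31 and 0.36. Xrcc1, the scaffold that Parp1 recruits, had 6.80 on all 3 arrays, equal to every deposited decimal.

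Mismatch repair and direct reversal were each represented by 1 gene. Pms2, a subunit of the endonuclease complex of mismatch repair, had values of 7.88, 8.29 and 8.13, with differences of 0.42 and 0.25. Mgmt, which lifts alkyl groups from guanine, had 7.85 in the control group and 8.42 in both Tl groups. Its difference was 0.56 at both times, within the 2-fold limit.

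**Figure D2:**
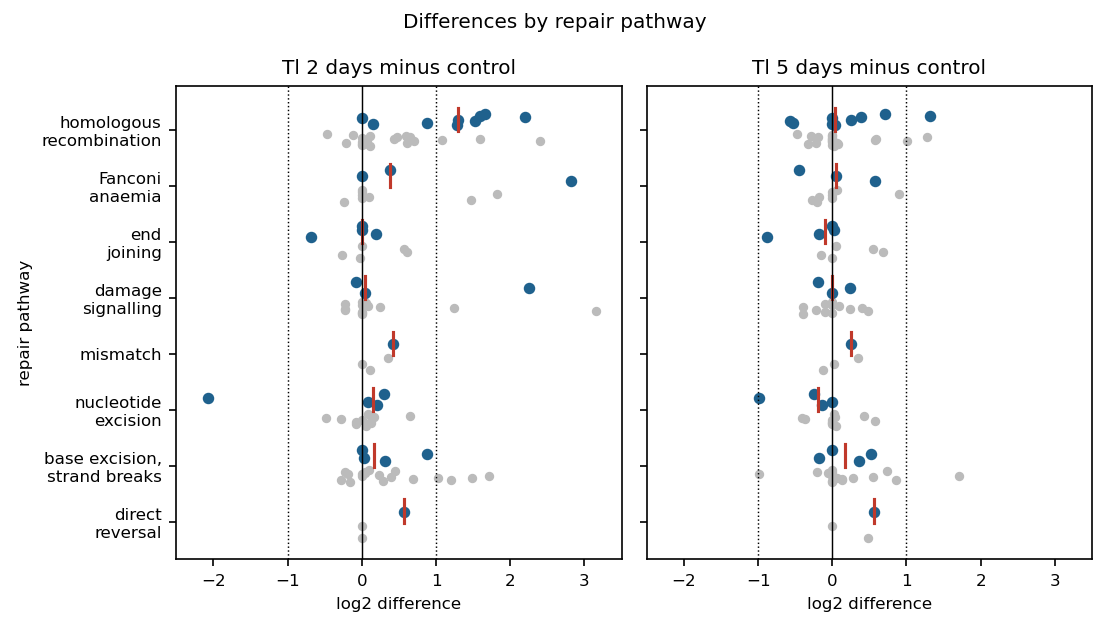
Log2 difference from the control array (x axis) for each measured gene of the set (dark points, the red bar is their median) and for other genes of the same pathway (grey points), by pathway (y axis) in the Tl 2 days and Tl 5 days groups; dotted lines mark 2-fold, and points are offset vertically for visibility. The 9 genes of homologous recombination in the set had a median of 1.30 at 2 days and of 0.03 at 5 days. The 20 other genes of that pathway had medians of 0.12 and 0.00. Xpa lay alone at -2.07.

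The Tl arrays were also compared directly, which leaves out the control array. At 5 days 7 of the 29 genes were over 2-fold lower than at 2 days (24.1%, against 3.07% of all genes), and only Xpa was over 2-fold higher, by 1.08 (3.45%, against 2.21%). The 7 genes were Fancd2 (-2.24), Rad54l (-2.09), Chek1 (-2.01), Bard1 (-1.81), Rad54b (-1.41), Exo1 (-1.25) and Rad51ap1 (-1.05). Brca1 was just inside the limit, at -0.96, and centring of the arrays brought Rad51ap1 inside it as well (-0.98). With values raised to the ERCC level only Chek1 was over 2-fold lower (-1.06). This comparison shares the Tl 2 days array with the first one, so the counts are not independent.

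Genes of the same pathways outside the set were counted in the same way. Probe sets were named for 86 of 116 such genes. At 2 days 12 of the 86 were over 2-fold higher (14.0%, against 6.03% of all genes) and 0 lower (against 4.65%). At 5 days 3 were over 2-fold higher (3.49%, against 5.37% of all genes) and 0 lower (against 4.87%). The same shares of all genes stand against the pathway counts that follow. The medians of the 86 genes were 0.05 and 0.00. In homologous recombination, 3 of 20 were over 2-fold higher at 2 days, among them Gen1, a nuclease that resolves recombination junctions, with differences of 2.41 at 2 days and just past the limit at 5 days, and Rpa2, a subunit of the protein that coats single-stranded DNA, with 1.60 and 0.00. The other was Eme1 at 1.08, and Nbn was over 2-fold higher only at 5 days (1.27), both named after their values were seen. Eme1 lay below the ERCC level on each array, and Gen1 did so on the control and Tl 5 days arrays. Rpa2 and Nbn lay above it on each array.

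H2ax, the histone that is phosphorylated around breaks, had values of 5.78, 8.94 and 6.26, and its difference of 3.16 at 2 days exceeded that of each of the 29 genes. Its values on the control and Tl 5 days arrays were dim. Mdc1, which binds phosphorylated H2ax, differed by 1.25 and 0.39, and the other 11 measured genes of damage signalling were within 2-fold. In the Fanconi anaemia pathway 2 of 8 genes passed the limit at 2 days. These were Ube2t, the conjugating enzyme that modifies Fancd2, with 1.82 and 0.90, and Usp1, which removes that mark, with 1.47 and -0.28. Ube2t lay below the ERCC level on each array (4.16, 5.98 and 5.05), and Usp1 lay above it (9.90, 11.37 and 9.62).

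In base excision and strand break repair 4 of 18 passed the limit at 2 days and 1 at 5 days. Apex1, the endonuclease that cuts at abasic sites, had values of 9.34, 11.05 and 11.04, above the ERCC level on each array and nearly equal in both Tl groups. Lig1, the ligase of replication and of long-patch repair, had 9.31, 10.79 and 9.59. The other pair were Parp3 (1.20) and Fen1 (1.02), named after their values were seen. Fen1 lay below the ERCC level on each array, and Lig1 and Parp3 lay above it. Among 6 genes of translesion synthesis, Rad18, a ubiquitin ligase of stalled forks, differed by 1.86 and 0.81. Rev3l, the catalytic subunit of a bypass polymerase, differed by -0.50 and -0.27. Rad18 lay below the ERCC level on each array.

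In the remaining pathways 0 of 21 genes passed the limit. In end joining the largest differences were those of Poll, a gap-filling polymerase (0.61 and 0.68), and Dclre1c, the nuclease Artemis (0.57 and 0.55). In nucleotide excision repair they were those of Rad23b, the partner of Xpc (0.65 and 0.43), and Gtf2h3, a subunit of the factor that opens the helix (0.13 and 0.58). Msh3 and Pms1 of mismatch repair differed by 0.35 and 0.35, and by 0.11 and -0.13. Alkbh3, a demethylase of direct reversal, differed by 0.00 and 0.48, and Alkbh2 had the same value on all 3 arrays.

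Most genes of proliferating cells were higher at 2 days. Of the 29 repair genes 8 were over 2-fold higher at that time, 1 was lower and 20 were within 2-fold. For the counts that follow, the shares of all genes were 6.03% higher and 4.65% lower at 2 days, and 5.37% and 4.87% at 5 days. Of 16 proliferation genes measured, 15 were over 2-fold higher at 2 days and 4 at 5 days, with medians of 2.87 and 0.71. Ccna2, a cyclin of DNA replication and mitosis, had values of 5.91, 11.48 and 7.87. The differences were 5.21 and 1.06 for Mki67, and 3.88 and 0.69 for Rrm2. Tyms was the exception at 2 days, at 0.79. Macrophage markers were also higher, with 4 of 10 over 2-fold higher at 2 days and 6 at 5 days, with control values from 4.53 to 15.75, Tl 2 days values from 4.53 to 16.48 and Tl 5 days values from 4.53 to 17.81. Of these 10 markers 8 were above control at both times, among them Cd68 (1.55 and 2.06), Csf1r (1.16 and 0.97) and Mrc1 (1.42 and 3.25). Adgre1 (6.14) and Cd163 (4.53), both below the ERCC level, had the same values on all 3 arrays. Markers of the thick ascending limb were lower, with 4 of 4 over 2-fold lower at both times and medians of -2.56 and -3.28. Their values ran from 14.73 to 18.70 in control kidney, from 13.34 to 16.07 at 2 days and from 9.24 to 14.57 at 5 days, and Umod, the uromodulin of that segment, differed by -2.63 and -9.46. Of the 12 proximal tubule markers, 3 were over 2-fold lower at 2 days, and at 5 days 3 were higher and 2 lower, among them Kap at -5.63. The part of proliferating cells, or of cells of another type, in the differences of the repair genes was not tested. In whole kidney RNA, fewer cells of a type and less RNA per cell cannot be told apart.

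**Figure D3:**
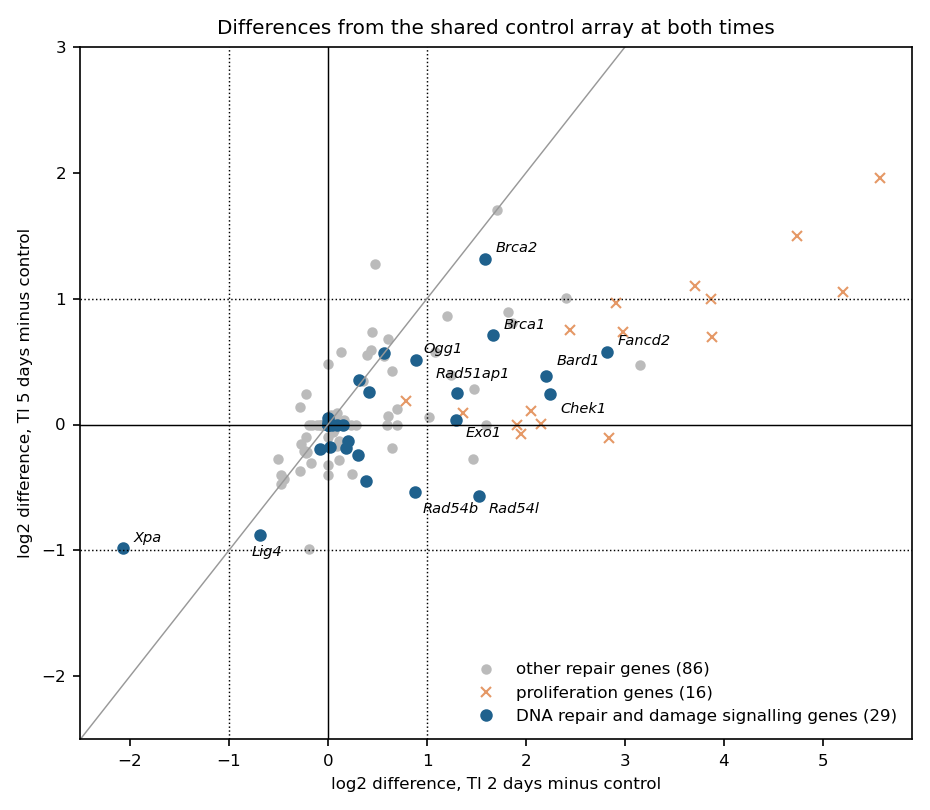
Log2 difference from control at Tl 2 days (x axis) and at Tl 5 days (y axis) for the 29 genes (dark points), 86 other repair genes (grey points) and 16 genes of proliferation (crosses), 1 array per group; both axes share the control array, dotted lines mark 2-fold and the diagonal marks equal differences. Brca2 lay closest to the diagonal among the 8 genes over 2-fold higher at 2 days, at 1.59 and 1.32.

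Target genes of p53 had another course. Of 17 measured, 2 were over 2-fold higher at 2 days (11.8%, against 6.03% of all genes) and 6 at 5 days (35.3%, against 5.37%). At each time 1 was over 2-fold lower (5.88%, against 4.65% and 4.87% of all genes), and the medians were 0.32 and 0.60. Cdkn1a, the cell cycle inhibitor, differed by 2.45 and 3.64, and its control value of 4.78 was dim. Ccng1, a cyclin induced by p53, differed by 0.73 and 1.87. Gadd45a, a stress gene, differed by 1.22 and 1.78, and Sesn2, a regulator of nutrient signalling, by -0.26 and 1.80. Ddb2 and Xpc, which are p53 targets in human cells, differed by 0.20 and -0.14 and by 0.09 and 0.00 on the same arrays.

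**Figure D4:**
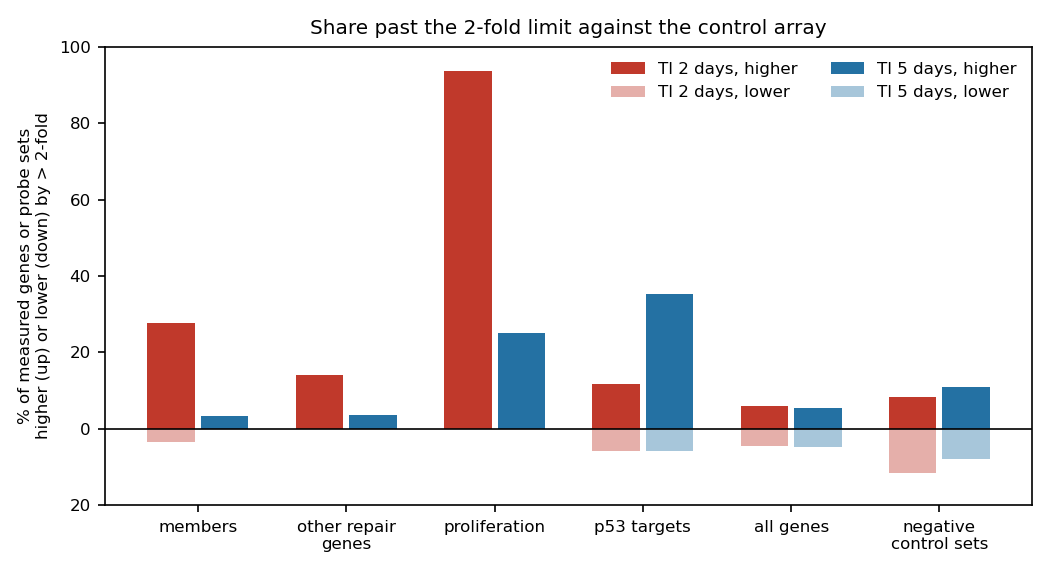
Share of measured genes or probe sets (y axis, percent) over 2-fold higher (bars above 0) or lower (bars below 0) than on the control array, in the Tl 2 days and Tl 5 days groups, for the 29 genes (labelled members), other repair genes, proliferation genes, p53 targets, all genes and negative control probe sets. The 29 genes reached 27.6% higher at 2 days and 3.45% at 5 days, against 8.33% and 10.9% of the negative control probe sets.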

How the data were processed

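Total RNA of rat kidney was measured on 3 Clariom S arrays, 1 per group. The authors deposited 1 log2 signal for each probe set and array and used Transcriptome Analysis Console for the analysis. The summarization, normalization and version are not given in the sources used here, and base 2 was inferred from folds in the paper's text. Of 24834 probe sets, 15049 had a single gene symbol in the platform annotation, 0 had several and 9785 were not named. Probe sets of 1 gene were averaged (10 genes). Each of the 29 genes had 1 probe set and the same symbol in RefSeq.

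Differences of log2 values between arrays, counts past the 2-fold limit and medians were computed, with no p-value. The code was tested on simulated arrays of 15037 genes for Tl 2 days against control, where 100 of 100 raised and 100 of 100 lowered genes were counted. The simulated differences lay past the limit by design and the noise was small, so this checks the counting only. The precision is limited by the number of arrays. The genes, the lists and the rules were chosen with earlier results of these data known. All measured genes of the set are named. Of other repair genes the 2 per pathway with the largest difference are named, and up to 4 of the proliferation and p53 lists. The alternatives were quantile normalization, centring on the gene median, a filter at the 40th percentile, a floor at the ERCC level, the highest probe set, and limits of 1.5-fold and 3-fold. Values were called equal when all deposited decimals were the same. Python 3.11.15, numpy 2.4.6, pandas 2.3.3, scipy 1.17.1 and matplotlib 3.10.9 were used.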

Additional observations from a re-analysis of the deposited data

Results flagged for a closer look

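For 7 of the 29 genes the Tl groups differed from the control array in opposite directions. With 1 array per group this difference between the groups was not tested, and 0 of the 7 passed the 2-fold limit in both directions. The share of all genes with opposite signs was not computed, so the count is no result about repair genes. Small differences of either sign were common, as the quartiles of all genes were -0.22 and 0.21 at 2 days and -0.20 and 0.20 at 5 days. Rad54l differed by 1.52 in the Tl 2 days group and by -0.57 in the Tl 5 days group. Its paralog Rad54b differed by 0.88 and -0.54, and Fancb by 0.38 and -0.45. Ercc1 differed by 0.30 and -0.24, Ddb2 by 0.20 and -0.14, Xrcc6 by 0.19 and -0.18, and Ung by 0.03 and -0.18. The opposite signs were kept in 6 of the 7 after quantile normalization and after centring of the arrays, with Ung the exception in both. Rad54l, Rad54b, Fancb, Ercc1 and Ddb2 lay below the ERCC level on all 3 arrays, and in the same comparisons the negative control probe sets varied with an SD of 0.86 and 0.88.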

How the results depend on the processing

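The floor at the ERCC level changed most. It left 1 gene over 2-fold higher at 2 days (against 4.40% of all genes under the floor) and 0 lower (3.44%), 0 higher at 5 days (4.13%), and 0 higher (1.72%) and 1 lower (2.14%) between the Tl groups. The filter at the 40th percentile of the mean over all arrays kept 19 of the 29 genes. It left 5 over 2-fold higher (8.75% of the 9022 genes kept) and 0 lower (577 of the 9022) at 2 days, and 0 higher (3.31%) and 3 lower (4.23%) between the Tl groups. The mean includes the Tl 2 days array, so a gene can pass the filter through a high value there. The filter is thus no independent check of these counts. A limit of 1.5-fold gave 10 higher (against 1806 of all 15037 genes) and 2 lower (10.7% of all genes) at 2 days, and 2 higher (11.2%) and 2 lower (9.97%) at 5 days. A limit of 3-fold gave 5 higher at 2 days (2.67%), 0 higher at 5 days (2.18%), and 0 higher (0.599%) and 4 lower (1.35%) between the Tl groups. Quantile normalization and centring each gave 1 lower at 5 days, which was Xpa, against 5.11% and 5.22% of all genes. Between the Tl groups centring gave 6 lower in place of 7 (2.79%), with Rad51ap1 at -0.98. Centring moved differences by -0.12 at 2 days. The medians of the 29 genes moved by less than 1.5-fold under the settings tried, and 0 single genes past the limit changed sign. Negative control probe sets passed the limit more often than all genes did, which limits what a single difference can carry. No paired analysis was possible because each group has 1 array.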

Other observations

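Exactly equal values occurred in the set as they did elsewhere. Palb2, Xrcc1 and Xrcc4 had the same value on all 3 arrays to every deposited decimal, 3 of 29 genes against 11.6% of all genes. At least 2 arrays were equal for 9 of the 29 genes, against 40.0% of all genes. All 23 background probe sets of the array were equal on the 3 arrays as well. A difference of 0 in these genes is thus a property of the deposited values, and how it arose was not tested.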
